A study of Bos taurus with 8 samples.

Results

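The genes described here are 35 genes of glycolysis and of the response to low oxygen: glucose and lactate transporters, the enzymes that turn glucose into pyruvate and lactate, 2 pyruvate dehydrogenase kinases, the oxygen-sensing factors and well-known hypoxia targets. They were chosen by symbol, and every array probe whose RefSeq accession belongs to 1 of the 35 symbols was taken. A probe was present for 33 of them, since HK2 and HK3 had none. In all, 15138 genes were measured, 29 of them from this list; measured means that in 1 group or more, each array had the probe well above background. ADM, ENO2, EPAS1 and P4HA1 were not well above background in any whole group. The 33 genes had 101 probes, of which 83 were kept.

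Glycolysis splits glucose into pyruvate in the cytosol and yields ATP without oxygen. When oxygen is scarce, prolyl hydroxylases of the EGLN family stop marking the HIF alpha subunits for degradation, and HIF then raises the transcription of glucose transporters, glycolytic enzymes, lactate dehydrogenase A, pyruvate dehydrogenase kinase 1 and vascular endothelial growth factor. Activated lymphocytes, monocytes and granulocytes use the same genes to run glycolysis at a high rate while oxygen is present. HIF1A itself is controlled largely at the level of its protein, which an expression array does not read.

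Total RNA of peripheral blood mononuclear cells (PBMCs), the blood fraction of lymphocytes and monocytes, was hybridised to 8 one-colour arrays. The 4 lame crossbred arrays (R1_1, R1_2, R2_1 and R2_2) came from cows labelled lame, the 2 normal crossbred arrays from crossbred cows without that label, and the 2 normal Tharparkar arrays from cows of the Tharparkar, an Indian zebu breed. The labels give no age, sex, treatment or stage of lameness, and no lame Tharparkar group was used here, so the design holds breed and lameness together only through the normal crossbred arrays. Because the labels say that RNA was run as technical duplicates, the arrays were read as 4 RNA samples: 2 lame ones, R1 and R2, and 1 for each normal group. The labels do not give the number of cows behind an RNA sample.

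The p-values therefore measure the spread between arrays and between the 2 lame RNA samples, and are too small as tests between cows. With duplicate arrays averaged, limma called 0 of the 29 genes in each of the 3 comparisons, against 1.1%, 2.48% and 3.51% of all genes for lame against normal crossbred, normal crossbred against Tharparkar, and lame against Tharparkar. At an unadjusted p under 0.05 that fit gave 1 higher and 2 lower, 1 higher and 0 lower, and 1 higher and 1 lower. In those fits the smallest difference called for any gene was 2.32, 2.50 and 2.10 on the log2 scale, and the largest among the 29 genes was 1.72, 1.80 and 1.61. Lame R2_2 was brighter than the other arrays: 70.9% of its probes were well above background against 52.8% to 61.5%, and the median raw intensity of its negative controls was 107 against 53 to 65. Values over all probes correlated at 0.981 to 0.997 between arrays of the same RNA and at 0.951 to 0.970 between lame R1 and lame R2.

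Values below are log2 signals minus the 75th percentile of the array, differences are on the log2 scale, and a gene was called higher or lower when its adjusted p in limma (Benjamini-Hochberg over all genes) was under 0.05. Each gene is read by the brightest of its kept probes. Lame against normal crossbred cells gave 0 higher and 3 lower of the 29 genes (10.3%), against 9.61% of all genes called in either direction (3.28% higher and 6.33% lower), so the share of these genes was near the background; 2 others were higher and 1 more lower at an unadjusted p under 0.05. Normal crossbred against normal Tharparkar gave 2 higher and 4 lower (20.7%), against 18.7% of all genes (11.8% higher and 6.88% lower). Lame crossbred against normal Tharparkar gave 1 higher and 9 lower (34.5%), against 23.3% of all genes (12.6% higher and 10.7% lower). The lower share was 31.0% of the 29 genes in the last comparison and 13.8% in the one before it. The last 2 comparisons share the Tharparkar arrays, and the first and the last share the lame arrays.

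The plot of the 29 genes by array shows where these calls lie. The Tharparkar arrays were highest for the 3 transporters, PFKL, PFKFB3 and LDHA, the normal crossbred arrays stood apart at PDK1, and the lame arrays were low at VEGFA. The median difference of the 29 genes was -0.30 for normal crossbred minus Tharparkar, against 0.01 over all genes, with 21 of 29 below 0. It was -0.25 for lame minus Tharparkar, against -0.01 over all genes, again with 21 of 29 below 0, and 0.07 for lame minus normal crossbred, against -0.04.

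**Figure D1:**
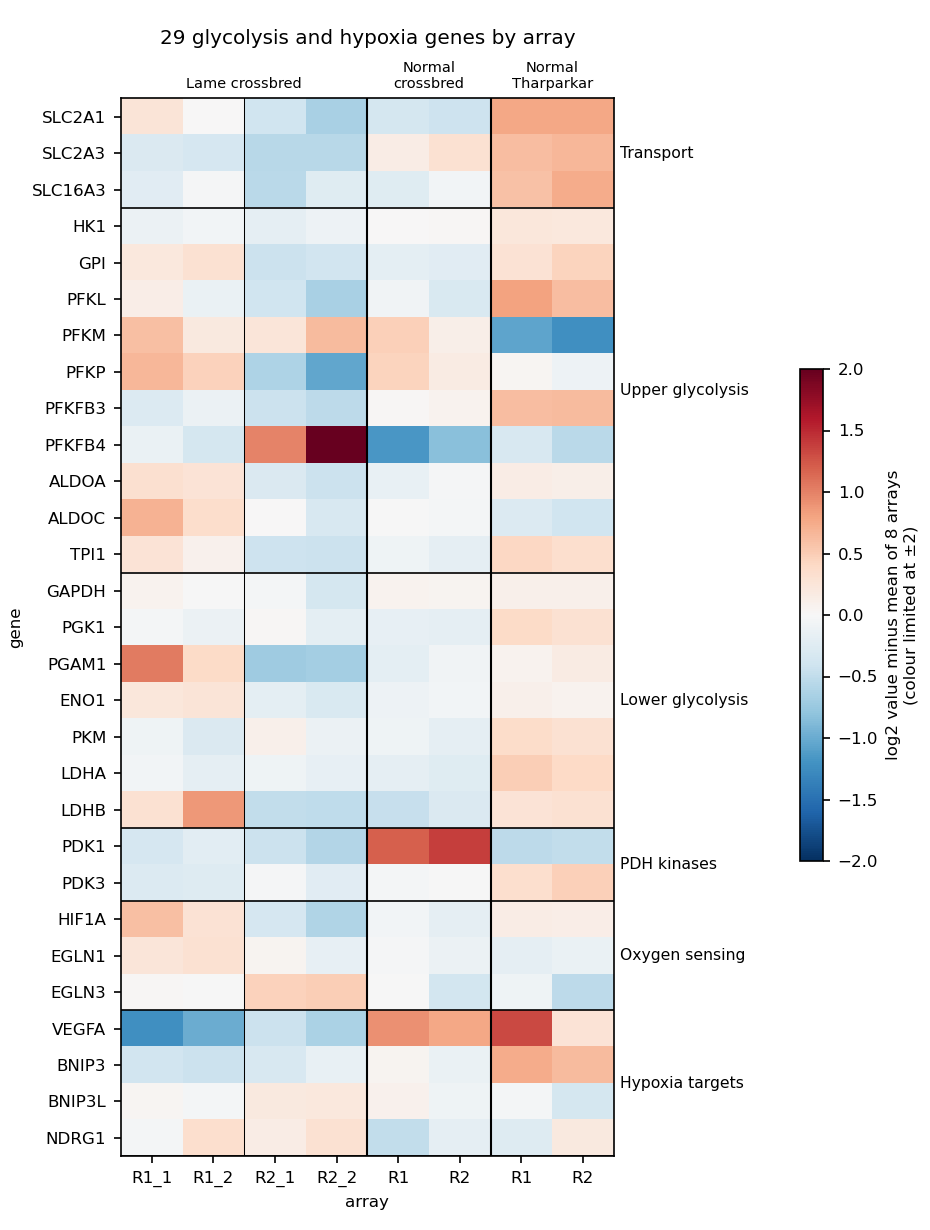
Heat map of the 29 measured genes (rows, grouped by role) on the 8 arrays (columns). Colour is the log2 value of the gene's brightest kept probe minus its mean over the 8 arrays, limited at 2 in either direction; PDK1 is high on the 2 normal crossbred arrays, VEGFA is low on the 4 lame arrays, and PFKM is low on the 2 Tharparkar arrays.

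Transport was the most uniform role: SLC2A1, SLC2A3 and SLC16A3 were each lower in lame crossbred than in Tharparkar cells. SLC2A1 encodes GLUT1, the widely expressed glucose transporter. It read 1.85 and 1.60 on the lame R1 arrays, 1.20 and 0.95 on the lame R2 arrays, 1.25 and 1.19 on the normal crossbred arrays, and 2.36 and 2.38 on the Tharparkar arrays. The Tharparkar values lay above all others, and the normal crossbred values lay within the range of the lame ones. SLC2A1 was lower in normal crossbred than in Tharparkar cells by -1.15 (SE 0.29, adjusted p = 0.034) and in lame than in Tharparkar cells by -0.97 (SE 0.25, adjusted p = 0.032); the difference of 0.18 between lame and normal crossbred was not called (adjusted p = 0.71).

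SLC2A3 encodes GLUT3, a glucose transporter of high affinity that is prominent in leukocytes and neurons. It read 4.33 and 4.27 on the lame R1 arrays, 4.05 and 4.05 on the lame R2 arrays, 4.76 and 4.92 on the normal crossbred arrays, and 5.23 and 5.28 on the Tharparkar arrays. The 3 groups did not overlap and stood in the order lame, normal crossbred, Tharparkar. The lame value was lower than the normal crossbred one by -0.66 (SE 0.15, adjusted p = 0.035) and lower than the Tharparkar one by -1.08 (SE 0.15, adjusted p = 0.0031), whereas normal crossbred minus Tharparkar was -0.42 and was not called (adjusted p = 0.14). Of its 5 kept probes, 4 were lower in lame than in Tharparkar cells, by -1.08 to -2.50. The 5th, A_73_P333276, was not well above background in normal crossbred cells and was at least 3.57-fold brighter in lame cells (adjusted p = 0.15 in the fit of single probes), and averaging the probes turned the SLC2A3 difference between lame and normal crossbred to 0.01.

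SLC16A3 encodes MCT4, the monocarboxylate transporter that exports lactate from glycolytic cells. It read 2.74 and 2.94 on the lame R1 arrays, 2.42 and 2.72 on the lame R2 arrays, 2.73 and 2.91 on the normal crossbred arrays, and 3.56 and 3.71 on the Tharparkar arrays. Again only the Tharparkar arrays stood apart. SLC16A3 was lower than in Tharparkar cells by -0.82 in normal crossbred cells (SE 0.20, adjusted p = 0.032) and by -0.93 in lame cells (SE 0.18, adjusted p = 0.010). All 4 of its kept probes gave differences below 0 in both comparisons, of -0.82 to -2.03 and -0.93 to -1.57, and 3 of the 4 were called in each. In the fit of single probes, 17.7% of all probes were called for normal crossbred against Tharparkar, and 21.6% for lame against Tharparkar.

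**Figure D2:**
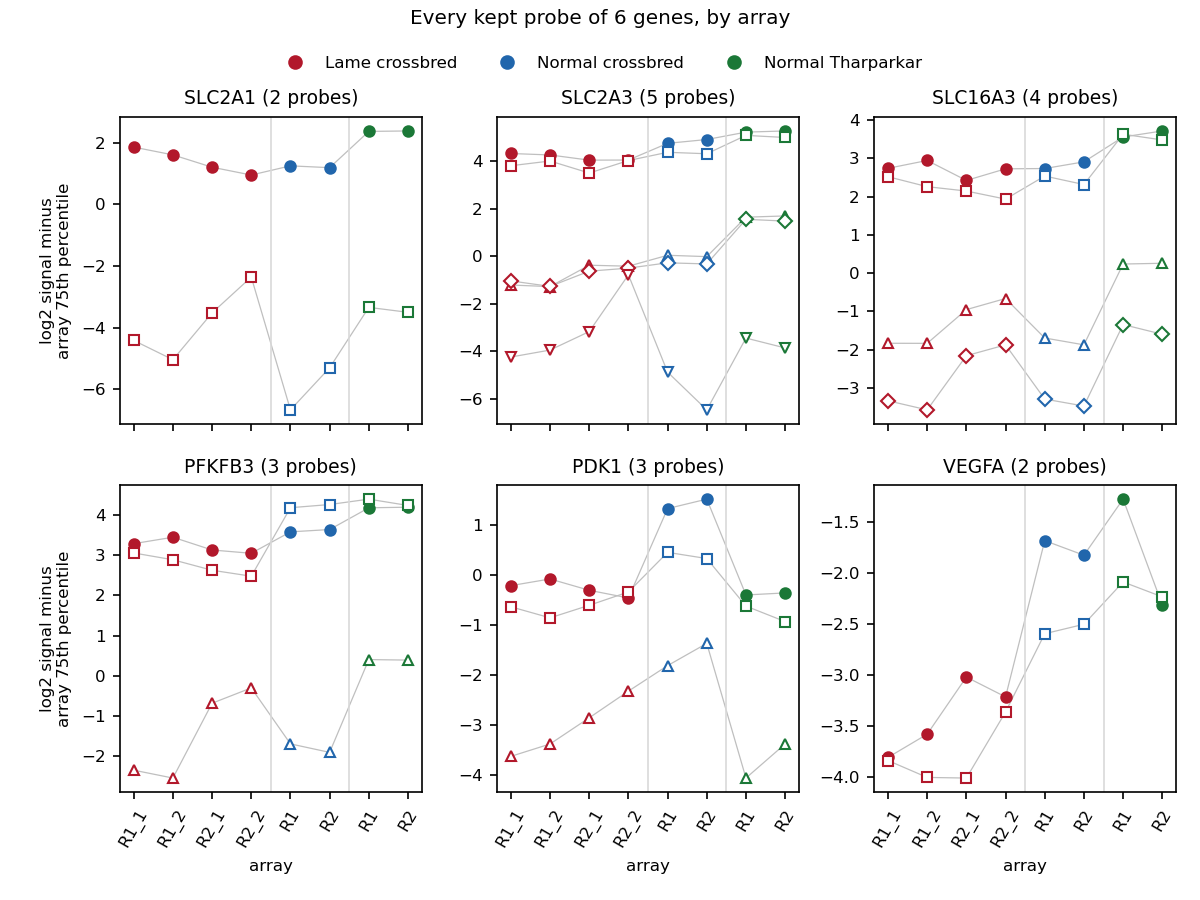
Log2 signal minus the array's 75th percentile for each kept probe of 6 genes, with arrays on the horizontal axis, 1 marker shape per probe and filled markers for the brightest probe, which represents the gene. All probes of SLC16A3 are highest on the Tharparkar arrays, all 3 of PDK1 are highest on the normal crossbred arrays, and both of VEGFA are lowest on lame arrays.

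The 10 upper glycolysis genes measured carry glucose from its first phosphorylation to the triose phosphates. Limma called 0 of them between lame and normal crossbred cells (1 higher and 1 lower at an unadjusted p under 0.05). It called 1 (10%) between normal crossbred and Tharparkar cells and 3 (30%) between lame and Tharparkar cells. Over all genes, 9.61%, 18.7% and 23.3% were called in the 3 comparisons. The lower calls were PFKL and PFKFB3. PFKL, the liver-type subunit of phosphofructokinase, read 3.92 and 3.66 on the lame R1 arrays, 3.38 and 3.15 on the lame R2 arrays, 3.71 and 3.48 on the normal crossbred arrays, and 4.60 and 4.40 on the Tharparkar arrays. PFKL was lower in lame than in Tharparkar cells by -0.97 (SE 0.23, adjusted p = 0.023); normal crossbred minus Tharparkar was -0.90 and missed the threshold (adjusted p = 0.055), while a dimmer probe of the gene gave -1.31 there (adjusted p = 0.0081). All 3 of its probes were highest on the Tharparkar arrays by group mean.

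PFKFB3 makes fructose 2,6-bisphosphate, the strongest activator of phosphofructokinase. It read 3.29 and 3.45 on the lame R1 arrays, 3.13 and 3.05 on the lame R2 arrays, 3.58 and 3.64 on the normal crossbred arrays, and 4.18 and 4.20 on the Tharparkar arrays, so the 3 groups did not overlap. It was lower in lame than in Tharparkar cells by -0.96 (SE 0.15, adjusted p = 0.0056); the differences of -0.38 between lame and normal crossbred and of -0.58 between normal crossbred and Tharparkar were not called (adjusted p = 0.17 and 0.063). Its probes did not rank the groups alike. Probe A_73_P073546 placed normal crossbred with Tharparkar cells and gave -1.46 for lame minus normal crossbred (adjusted p = 0.0074), where 7.34% of all probes were called.

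PFKM, the muscle-type subunit of phosphofructokinase, was the only gene of the 29 called higher in lame than in Tharparkar cells. Its single kept probe, A_73_P050301, read -2.20, -2.60, -2.56 and -2.16 on the lame arrays R1_1, R1_2, R2_1 and R2_2, -2.33 and -2.68 on the normal crossbred arrays, and -3.85 and -4.03 on the Tharparkar arrays, where it was not well above background. It was at least 2.94-fold brighter in lame cells (adjusted p = 0.0022) and at least 2.71-fold brighter in normal crossbred cells (adjusted p = 0.0061) than in Tharparkar cells. The probe passed the filter through the crossbred groups alone, which favoured a difference in this direction. The difference turned to -0.27 and -0.28 when the background was corrected with normexp, and the other 5 PFKM probes were not kept. PFKFB4, a second enzyme that sets fructose 2,6-bisphosphate, passed the filter through the lame arrays alone; it read -4.30, -4.52, -3.18 and -1.78 on them and was not called in any comparison (adjusted p = 0.18 against normal crossbred, for a difference of at least 2.50-fold).

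By their brightest probes, the other upper genes were not called in any comparison. In the fit of single probes, a dimmer TPI1 probe and a dimmer GPI probe were called for lame minus Tharparkar, at -0.81 and -1.14 (adjusted p = 0.029 and 0.025). GPI, the isomerase of glucose 6-phosphate, and TPI1, which interconverts the triose phosphates, gave -0.58 and -0.51 for normal crossbred minus Tharparkar (adjusted p = 0.21 and 0.24), and 2 dimmer GPI probes were called there at -1.64 and -1.45 (adjusted p = 0.013 and 0.014). ALDOA and ALDOC, the muscle and brain forms of aldolase, differed by -0.22 and 0.31. HK1, the hexokinase that starts glycolysis in most cells, had its widest difference, -0.33, between lame and Tharparkar cells, and PFKP, the platelet-type phosphofructokinase, its widest, -0.44, between lame and normal crossbred cells.

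The 7 lower glycolysis genes take the triose phosphates to pyruvate and lactate. All had differences below 0 in both comparisons with Tharparkar, with medians of -0.47 for normal crossbred and -0.25 for lame cells. Only LDHA was called, 14.3% of the 7 in each, against 18.7% and 23.3% of all genes. LDHA encodes the lactate dehydrogenase subunit that favours lactate formation. It read 4.69 and 4.56 on the lame R1 arrays, 4.65 and 4.58 on the lame R2 arrays, 4.57 and 4.51 on the normal crossbred arrays, and 5.24 and 5.14 on the Tharparkar arrays. By this brightest probe the crossbred arrays, lame and normal, overlapped and lay below both Tharparkar arrays. LDHA was lower than in Tharparkar cells by -0.65 in normal crossbred cells (SE 0.15, adjusted p = 0.021) and by -0.57 in lame cells (SE 0.13, adjusted p = 0.018). Its dimmer probes were not called in the fit of single probes. A_73_119375 gave -0.41 and -0.10 in these comparisons (adjusted p = 0.14 and 0.65). A_73_P362966 gave -1.12 and -0.55 (adjusted p = 0.15 and 0.37). On both of these probes the lame and Tharparkar arrays overlapped.

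PGK1, which makes the first ATP of the pathway, came nearest to the threshold among the rest: -0.52 for normal crossbred minus Tharparkar (adjusted p = 0.055) and -0.43 for lame minus Tharparkar (adjusted p = 0.054). PKM, the pyruvate kinase of most tissues, gave -0.47 and -0.43 (adjusted p = 0.10 and 0.078). GAPDH, the dehydrogenase often used as a reference gene, gave -0.03 and -0.18, PGAM1 gave -0.25 and -0.10, and LDHB, the subunit that favours pyruvate, gave -0.66 and -0.25, none of them called by the brightest probe. In the fit of single probes, 1 of 4 LDHB probes was called in both comparisons, at -0.66 in each (adjusted p = 0.023 and 0.012). Likewise 1 of 4 PGAM1 probes was called, at -1.36 and -0.89 (adjusted p = 0.0028 and 0.0064). For PGK1, 1 of 3 probes was called for normal crossbred minus Tharparkar, at -1.50 (adjusted p = 0.047). ENO1, the enolase of most tissues, gave -0.16 by its brightest probe, and 3 dimmer ENO1 probes gave -1.33, -1.69 and -1.92 for normal crossbred minus Tharparkar (adjusted p = 0.0070, 0.0029 and 0.0038). For lame minus normal crossbred, 2 of those 3 were called in the opposite direction, at 0.97 and 0.84 (adjusted p = 0.024 and 0.036), against 0.07 by the brightest probe.

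**Figure D3:**
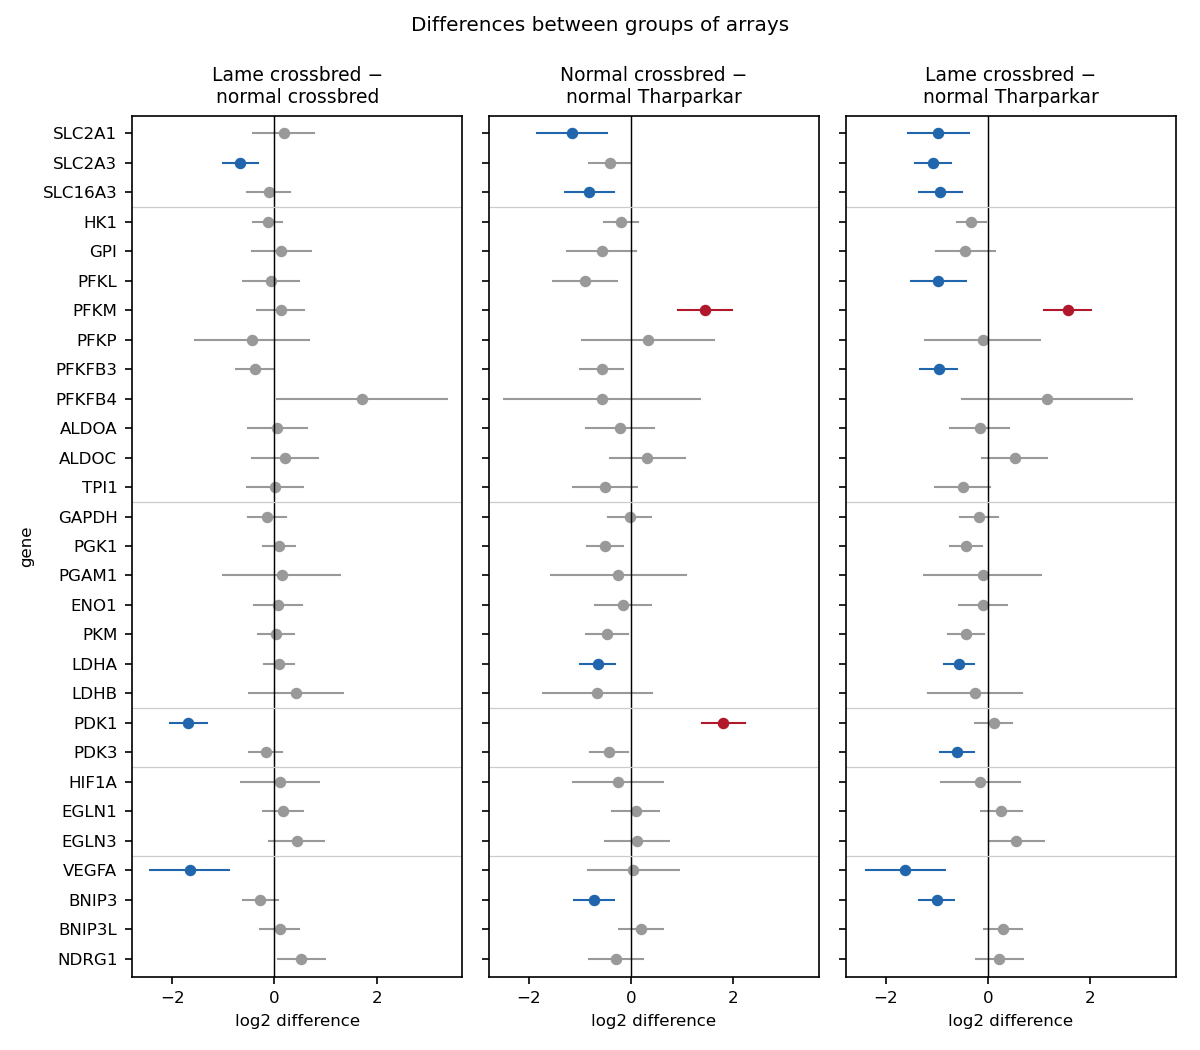
Log2 difference (horizontal axis) with its 95% confidence interval from limma for the 29 genes (rows, grouped by role as in the heat map) in the 3 comparisons; coloured points passed the adjusted p threshold of 0.05, blue lower and red higher in the first-named group, grey not called. PDK1 is the gene called in opposite directions in the first 2 panels, and the lower glycolysis genes lie at or left of 0 in the panels against Tharparkar.

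PDK1 gave the clearest difference between lame and normal crossbred cells. The pyruvate dehydrogenase kinases phosphorylate and switch off pyruvate dehydrogenase, which keeps pyruvate from entering the mitochondrial oxidation pathway. PDK1 read 1.33 and 1.51 on the normal crossbred arrays, -0.22, -0.08, -0.31 and -0.46 on the lame arrays R1_1, R1_2, R2_1 and R2_2, and -0.40 and -0.36 on the Tharparkar arrays. The normal crossbred arrays lay more than 1 log2 unit above every other array, while the lame and Tharparkar arrays overlapped. PDK1 was lower in lame than in normal crossbred cells by -1.69 (SE 0.15, adjusted p = 0.0013) and higher in normal crossbred than in Tharparkar cells by 1.80 (SE 0.18, adjusted p = 0.0011); lame minus Tharparkar was 0.11 (adjusted p = 0.63).

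All 3 PDK1 probes placed normal crossbred cells highest, by -1.00, -1.69 and -1.46 for lame minus normal crossbred (2 of them called) and by 1.17, 1.80 and 2.13 for normal crossbred minus Tharparkar (all called). Within slide 1 alone the lame minus normal crossbred difference was -1.59, and within slide 2 it was -1.79. The normal crossbred arrays are duplicates of 1 RNA sample, so the difference rests on that sample. PDK3, another kinase of the family, was lower in lame than in Tharparkar cells by -0.60 (SE 0.14, adjusted p = 0.021), and its second probe gave -0.81 (adjusted p = 0.020 in the fit of single probes).

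Limma called 0 of the 3 oxygen-sensing genes measured in any comparison, where 9.61%, 18.7% and 23.3% of all genes were called. At an unadjusted p under 0.05, 1 was higher in lame than in Tharparkar cells (EGLN3). HIF1A, the oxygen-controlled HIF subunit, read 2.64 and 2.33 on the lame R1 arrays, 1.70 and 1.44 on the lame R2 arrays, 1.99 and 1.85 on the normal crossbred arrays, and 2.18 and 2.17 on the Tharparkar arrays. By this brightest probe the 2 lame RNA samples lay on either side of both normal groups. On a second HIF1A probe lame R2 overlapped normal crossbred. The dimmest probe reversed the lame samples, at -1.20 and -1.05 for R1 and -0.28 and -0.14 for R2. It read -0.93 and -0.72 on the normal crossbred arrays and -1.43 and -1.39 on the Tharparkar arrays. EGLN1, the main prolyl hydroxylase, differed by 0.17, 0.09 and 0.26 in the 3 comparisons, and EGLN3, a hydroxylase that HIF itself induces, by 0.43, 0.12 and 0.55 (adjusted p = 0.13 for the last). EPAS1, which encodes HIF-2 alpha, had 1 probe well above background on the 2 lame R2 arrays and on none of the other 6.

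Among the 4 hypoxia targets measured, VEGFA and BNIP3 were called. VEGFA, the growth factor of blood vessels, read -3.81 and -3.58 on the lame R1 arrays, -3.02 and -3.21 on the lame R2 arrays, -1.68 and -1.82 on the normal crossbred arrays, and -1.27 and -2.31 on the Tharparkar arrays. All 4 lame arrays lay below all 4 normal arrays, and the Tharparkar duplicates differed by 1.04. VEGFA was lower in lame cells by -1.65 against normal crossbred (SE 0.33, adjusted p = 0.024) and by -1.61 against Tharparkar (SE 0.33, adjusted p = 0.014), and its second kept probe gave -1.26 and -1.65 (adjusted p = 0.018 and 0.0031 in the fit of single probes). Its signal was dim, and that second probe was well above background on 3 of the 4 lame arrays.

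BNIP3, a mitochondrial protein that promotes mitophagy, read -0.08, -0.13, -0.03 and 0.16 on the lame arrays R1_1, R1_2, R2_1 and R2_2, 0.35 and 0.16 on the normal crossbred arrays, and 1.03 and 0.93 on the Tharparkar arrays. Tharparkar arrays were the high ones here, as for the transporters. BNIP3 was lower than in Tharparkar cells by -0.73 in normal crossbred cells (SE 0.17, adjusted p = 0.025) and by -1.00 in lame cells (SE 0.15, adjusted p = 0.0039). Its other probe did not show this: it gave 0.25 and 0.03 in the same comparisons (adjusted p = 0.46 and 0.92). BNIP3L, its close relative, and NDRG1, a stress-induced gene, were not called in any comparison; NDRG1 gave 0.52 for lame minus normal crossbred (adjusted p = 0.14).

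The 2 lame RNA samples differed from each other more than their duplicate arrays did. The median absolute difference over the 29 genes was 0.33 between lame R1 and lame R2, against 0.16 and 0.19 between the duplicates of each, 0.13 in normal crossbred and 0.10 in Tharparkar cells. Both R1 arrays lay above both R2 arrays for 17 of 29 genes (58.6%), against 48.6% of all genes, and below them for 6 (20.7%, against 28.5%). By the brightest probes, R2 minus R1 was -1.40 for PGAM1, -1.39 for PFKP, -1.10 for LDHB, -0.91 for HIF1A, -0.68 for ALDOC, -0.67 for GPI, -0.66 for ALDOA and -0.65 for SLC2A1. The other probes of PGAM1, LDHB and PFKP also gave differences below 0. The other ALDOC probes gave 1.81 and 2.23, and dim probes of HIF1A, ALDOA and SLC2A1 gave 0.92, 0.67 and 1.79. PFKFB4 went the other way, at 1.93.

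With lame R2 as the only lame sample, 2 of the 29 genes were higher and 7 lower than in normal crossbred cells (15% and 31.2% of all genes), and with lame R1 as the only one, 10 were higher and 4 lower (24.8% and 22.5% of all genes). These fits hold 1 RNA sample a group, so their spread is that of duplicate arrays alone. Against Tharparkar cells the count lower was 20 with lame R2 (33.9% of all genes) and 12 with lame R1 (24.6%). PDK1, VEGFA and SLC2A3 were lower than in normal crossbred cells with either sample, by -1.80, -1.37 and -0.79 for R2 and by -1.57, -1.94 and -0.54 for R1. The 10 genes called in lame against Tharparkar cells kept their direction with either lame sample. These genes, like PDK1, VEGFA and SLC2A3, were chosen by fits that held both lame samples. The refits reuse the same normal arrays, so the kept direction is not independent support.

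Which probe read a gene mattered for many of these differences. For 21 genes with 2 or more probes well above background on all arrays, the dimmest probe minus the brightest, centred on the gene's mean over 8 arrays, had a median of -0.53 and -0.45 on the lame R1 arrays, 0.52 and 0.63 on the lame R2 arrays, -0.32 and -0.39 on the normal crossbred arrays, and 0.26 and 0.18 on the Tharparkar arrays. Dim probes were thus relatively brighter in lame R2 and Tharparkar RNA than in the other 2 RNA samples. Over 4297 genes with such probes the medians were smaller: -0.21 and -0.20, 0.28 and 0.51, -0.20 and -0.17, and -0.04 and -0.03. GPI shows it: R2 minus R1 was -0.67 by its brightest probe and 0.58 and 0.73 by the other 2. What sets the probes of a gene apart was not tested.

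**Figure D4:**
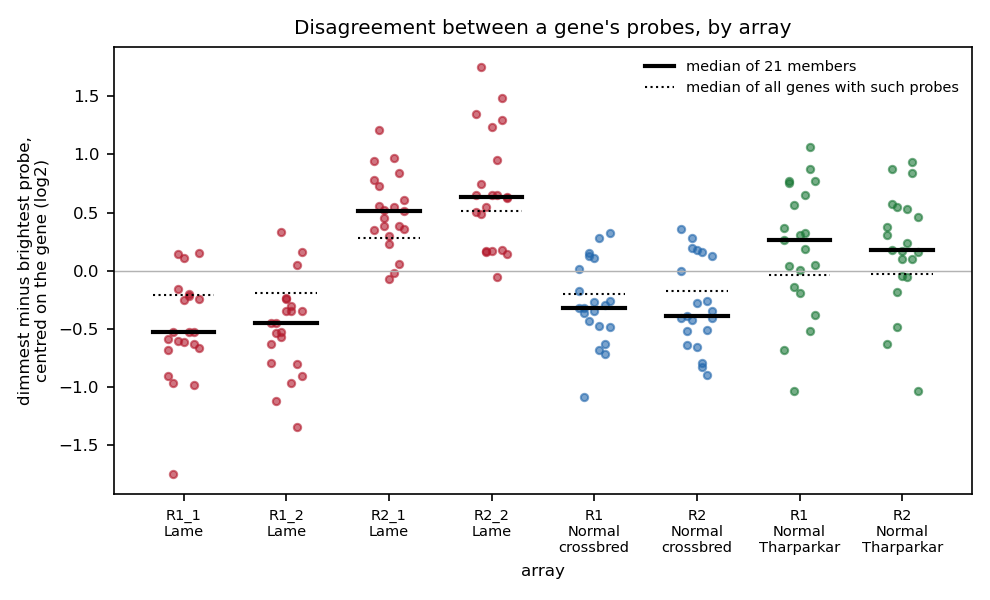
Dimmest minus brightest probe of a gene on the log2 scale (vertical axis), centred on the gene's mean over the 8 arrays, for 21 genes (points) on each array; solid bars are the medians of the 21 genes and dotted bars the medians of all 4297 genes with such probes. The medians of the 21 genes lie below 0 on the lame R1 and normal crossbred arrays and above 0 on the lame R2 and Tharparkar arrays.

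Across the 83 kept probes, 2 were called higher and 6 lower in lame than in normal crossbred cells, where 3.21% of all probes were higher and 4.14% lower. Normal crossbred against Tharparkar cells gave 4 higher and 17 lower (9.7% and 7.97% of all probes), and lame against Tharparkar 1 higher and 24 lower (11.8% and 9.8%). Of the 23 genes with several kept probes, 9, 7 and 8 had differences of both signs in the 3 comparisons, and 0 had probes called in both directions (limma, fit of single probes). Read by the dimmest probe above background on all arrays, normal crossbred against Tharparkar gave 8 lower and 1 higher, where 19% of all genes were called, and 3 of the 6 calls remained.

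Calls against Tharparkar also depended on single arrays. In each fit given here where a count of these genes moved, the count over all genes moved in the same direction. Such a change is therefore not particular to these genes. Without any 1 of the 4 normal arrays, the count lower in normal crossbred than in Tharparkar cells went from 4 to 0 in limma (4 to 6 at an unadjusted p under 0.05), with 1 group then left at a single array; without lame R2_2 it was 7. Its 2 calls in the higher direction became 1 without normal crossbred R1 or Tharparkar R2. The 9 lower in lame than in Tharparkar cells became 1 without Tharparkar R1, 3 without Tharparkar R2 and 6 without either normal crossbred array, and the 3 lower in lame than in normal crossbred cells became 1 without normal crossbred R1, normal crossbred R2 or lame R1_2. With array medians in place of 75th percentiles, limma called 0 higher and 0 lower for normal crossbred against Tharparkar (2 and 0 at an unadjusted p under 0.05) and 0 higher and 1 lower for lame against Tharparkar (0 and 8). For normal crossbred against Tharparkar, the smallest difference called for any gene in that fit was 2.07. The largest among the 29 genes was 1.76, so the counts of 0 there say little about these genes. All 19 calls kept their sign within slide 1 and within slide 2. Each slide holds an array of each RNA sample and the calls were chosen over both slides, so this is not independent support.

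Genes of the neighbouring pathways were read from lists of 102 genes, of which 67 were measured: other glycolytic enzymes, other sugar and lactate carriers, entry of pyruvate into mitochondria, the pentose phosphate pathway, other oxygen-sensing factors and other hypoxia targets. Lame against normal crossbred cells gave 5 higher and 5 lower of the 67 (14.9%, against 9.61% of all genes), normal crossbred against Tharparkar 5 higher and 9 lower (20.9%, against 18.7%), and lame against Tharparkar 4 higher and 8 lower (17.9%, against 23.3%). The 25 other hypoxia targets measured held 6, 10 and 7 of these calls, in both directions, and the 7 pentose phosphate genes held 0 (limma; 1, 1 and 0 at an unadjusted p under 0.05).

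Between lame and normal crossbred cells, CXCR4, the receptor of the chemokine CXCL12, was lower by -1.81 (adjusted p = 0.00057), and BHLHE40, a transcriptional repressor, by -1.27 (adjusted p = 0.0024). MPC2, a subunit of the mitochondrial pyruvate carrier, was higher by 1.16 (adjusted p = 0.031), SLC2A6, a glucose transporter of leukocytes, by 0.89 (adjusted p = 0.021), and MXI1, an antagonist of MYC, by 0.77 (adjusted p = 0.045). MPC2 read 1.38, 1.91, 1.21 and 1.20 on lame R1_1, R1_2, R2_1 and R2_2, 0.03 and 0.50 on the normal crossbred arrays, and 1.82 and 2.04 on the Tharparkar arrays. As with PDK1, the normal crossbred arrays were the ones apart, here at the low end.

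Against Tharparkar cells, normal crossbred cells were lower for FLT1, a VEGF receptor, MPC2 (-1.66) and MIF, a cytokine (-1.56), and higher for ANGPTL4, an inhibitor of lipoprotein lipase (2.15), ENG, a co-receptor for TGF-beta (2.13), and BHLHE40 (1.01). FLT1 was well above background on the Tharparkar arrays alone. It was at least 3.38-fold brighter there than in normal crossbred and at least 3.02-fold than in lame cells (adjusted p = 0.0019 and 0.0014). FLT1 passed the filter only through those arrays, which favoured a difference in this direction, so its p-values are not independent support. Lame cells were further lower than Tharparkar cells for CXCR4 (-2.35), and higher for ANGPTL4 (1.10), ENG (1.00) and SLC2A6 (0.80).

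The cell types in the fraction differed between the groups in their markers, and in bulk RNA fewer cells of a type and less RNA per cell cannot be told apart. Of 110 marker genes, 76 were measured. Of 16 granulocyte markers, 8 were lower in lame than normal crossbred cells (6.33% of all genes) and 9 lower than in Tharparkar cells (10.7%). Their summed signal, in units of the array's 75th percentile, was 84.0 to 114 on the lame arrays. It was 139 to 145 on the normal crossbred arrays and 154 to 164 on the Tharparkar arrays. S100A12 was the largest part of that sum, at log2 values of 6.25 to 6.74 on the lame and 6.24 to 6.66 on the normal arrays. The gap came mainly from TGM3: 1.93 to 2.11 on the lame, 4.95 to 4.98 on the normal crossbred and 5.9 on both Tharparkar arrays. MPO and CEBPE overlapped between lame and Tharparkar arrays and were highest in normal crossbred cells. CXCR1, a receptor of neutrophils, was lower in lame cells by -3.82 against normal crossbred and by -4.78 against Tharparkar. CXCR2 was well above background on 2 of the 4 lame arrays and on all normal arrays, and the neutrophil peptides CATHL1 and CATHL3 on none of the 4 lame arrays, 1 of the 2 normal crossbred arrays and both Tharparkar arrays. CATHL1 and CATHL3 passed the filter through the Tharparkar arrays alone. CXCR1, CXCR2, TGM3, MMP9, LTF, ELANE and TCN1 were lowest in lame cells, as were SLC2A3, PFKFB3 and VEGFA by their brightest probes. PFKFB3 was not called between lame and normal crossbred cells. Other granulocyte markers did not follow. OLR1 read 0.07 and -0.06 on the lame R2 arrays against -0.60 and -0.58 on the normal crossbred arrays. CATHL2 was higher on lame R2 than on Tharparkar arrays, and PGLYRP1 and ALPL overlapped between lame and normal arrays. The part of the granulocyte markers in the SLC2A3, PFKFB3 and VEGFA results was not tested.

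Of 14 T cell markers, 10 were higher and 1 lower in normal crossbred than in Tharparkar cells, and of 11 NK cell markers 6 were higher. Over all genes, 11.8% were higher and 6.88% lower in that comparison. Summed T cell signal was 85.0 to 88.7 on the normal crossbred arrays, 52.2 to 54.7 on the lame arrays and 43.8 to 44.8 on the Tharparkar arrays, and NK signal was 153 to 166, 50.7 to 95.2 and 63.6 to 68.3. CD3D, part of the T cell receptor complex, differed by 0.98 between normal crossbred and Tharparkar cells and by -0.55 between lame and normal crossbred cells, and NKG7, of cytotoxic cells, by 1.25 and -1.44. KLRD1 and CD28 were not well above background on the Tharparkar arrays, and GZMA was on 1 of the 2. Most T and NK markers were highest in the same RNA as PDK1, but not all. CD5 was highest on the Tharparkar arrays, at 2.21 and 2.01 against 1.23 and 0.85 on the normal crossbred arrays. ZAP70, CD28, NCR1 and GZMA were highest on the lame R2 arrays. The part of the T and NK markers in the PDK1 difference was not tested.

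Monocyte markers were mixed. Of 12, 4 were higher and 1 lower in lame than in normal crossbred cells, against 3.28% and 6.33% of all genes. In normal crossbred against Tharparkar cells 2 were lower, against 6.88% of all genes. In lame against Tharparkar cells 3 were higher and 1 lower, against 12.6% and 10.7% of all genes. CD14, the monocyte co-receptor for endotoxin, was lower in lame cells by -1.56 and -1.62 against the normal groups. Summed monocyte signal was 109 to 142 on the lame arrays, 79.8 to 81.0 on the normal crossbred arrays and 98.2 to 104 on the Tharparkar arrays. Of 5 B cell markers, MS4A1 was lower in lame than in Tharparkar cells by -0.93, where 10.7% of all genes were lower. The B cell sums were 107 to 180, 169 to 170 and 187 to 206.

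Platelet markers were higher in both crossbred groups than in Tharparkar cells, and red cell markers in lame cells. Of 7 platelet markers, 5 were higher in normal crossbred and 6 in lame than in Tharparkar cells, against 11.8% and 12.6% of all genes. PF4 was higher by 0.73 and 1.12. Platelet sums were 17.7 to 20.5 on the lame, 15.3 to 16.4 on the normal crossbred and 9.43 to 10.1 on the Tharparkar arrays. Of 11 erythroid markers, 5 were higher in lame than in Tharparkar cells (12.6% of all genes), HBB by 1.34. In normal crossbred against Tharparkar cells 1 was higher and 1 lower, against 11.8% and 6.88% of all genes. Erythroid sums were 18.4 to 28.1, 11.6 to 13.1 and 11.9 to 12.6 in the same order of groups. Their part in the differences against Tharparkar cells was not tested.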

How the data were processed

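Total RNA of PBMCs was labelled with Cy3 and hybridised to 8 bovine arrays, RNA integrity number greater than 7, per the labels' protocols. The authors' files hold the intensity of each spot from the scanner software, background-subtracted and detrended, per the file headers, which name Agilent Feature Extraction 12.0.3.1; the submitters' processing notes name 11.5.1.1. A log2 table of unstated scale and centring, also deposited by the authors, served as an alternative. Here log2 processed signal was taken minus the array's 75th percentile over 43653 noncontrol probes. Outlier spots were left out (35 probes), 0 spots were saturated, and a probe was kept if all arrays of some group had it well above background. Accessions without version were matched to a RefSeq table of assembly ARS-UCD2.0: 27054 probes matched 1 gene and 16599 kept the file's name. Coordinates were not used, because the array annotation is on another assembly.

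The main fit was limma 3.58.1 under R 4.3.3, 2-sided, with lmFit and eBayes: 3 group means, 8 arrays, 5 residual and 2.35 prior degrees of freedom, 15138 genes, adjusted p under 0.05; single probes were fitted likewise over 24659 probes. The number of arrays limits the precision. For an "at least" fold, each dim array was raised to its lowest signal well above background if the probe lay under that. Same-numbered normal arrays share a slide; deviations from the group means correlated at 0.24 for both pairs, which 2 groups of 2 fix to be equal. Normexp used median spot and background signals with an offset of 50, because the mean signal is not in the files used here. The scripts were tested on simulated data. All members are accounted for, called ones with full statistics; of the pathway lists, the 3 largest called differences per comparison and direction are named, and of the marker lists the first gene measured and those at background. Other called list genes are counted only, and 1 gene that the rule selects is not reported here. The members and lists were chosen with earlier results of these data known.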

Additional observations from a re-analysis of the deposited data

Results flagged for a closer look

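One probe of EPAS1, A_73_P106381, was well above background on 2 lame arrays, R2_1 and R2_2, which belong to the same RNA sample, and on no normal array. It lies outside the comparisons because no whole group passed the filter. It read -4.27 and -1.92 on those arrays and -5.18 and -6.97 on the lame R1 arrays. The second EPAS1 probe was not well above background on any array. R2_2 was the brightest array, and its part in this signal was not tested.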

How the results depend on the processing

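Results were recomputed under 22 alternatives, and under 1 more chosen after seeing the data, in which a gene is read by its dimmest probe above background on all 8 arrays. Of the 19 calls of a gene in a comparison, 14 kept their sign under every alternative that could read the gene. The 5 that turned were SLC2A3 for lame against normal crossbred, to 0.015 with a gene's probes averaged, BNIP3, to 0.25 and 0.032 against Tharparkar for normal and lame crossbred by the dimmest probe, and PFKM, to -0.28 and -0.27 in the same 2 comparisons with normexp; that probe is dim in Tharparkar cells. The cause of the others was not tested. Leaving out single arrays aside, where a count given below moved, the count over all genes moved in the same direction. For normal crossbred against Tharparkar, 1041 of 15138 genes were lower in the main fit, 515 with normexp and 4174 with only the 2 groups compared.

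For lame against normal crossbred the count lower (3) was 1 with normexp, 1 without a filter, 0 with duplicates averaged, 0 on slide 1, 0 on slide 2, 7 without both lame R1 arrays, and 1 to 3 leaving out 1 array. The count higher (0) was 1 with probes averaged, 1 by the dimmest probe, 2 without both R1 arrays and 10 without both R2 arrays. The median of the 29 genes (0.07) was -0.44 with array medians, which moved the median of all genes to -0.55, -0.18 without both R1 arrays, 0.32 by the dimmest probe, and -0.06 to 0.10 leaving out 1 array.

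For normal crossbred against Tharparkar the count lower (4) was 9 with probes averaged, 1 with normexp, 0 with array medians, without a filter, with duplicates averaged and on each slide, 14 with only the 2 groups compared, 13 without both R1 arrays, 14 without both R2 arrays, 8 by the dimmest probe, and 0 to 7 leaving out 1 array. The count higher (2) was 1 with normexp, quantile normalization, the filter on all 8 arrays and the dimmest probe, 0 with array medians, duplicates averaged and each slide, and 1 to 2 leaving out 1 array. The median (-0.30) was -0.44 to -0.30 leaving out 1 array.

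For lame against Tharparkar the count lower (9) was 4 with normexp, 1 with array medians, 3 without a filter, 0 with duplicates averaged, 1 on slide 1, 0 on slide 2, 20 without both R1 arrays, and 1 to 9 leaving out 1 array. The count higher (1) was 0 with array medians, the filter on all 8 arrays, duplicates averaged, each slide and the dimmest probe, 3 without both R1 arrays, 4 without both R2 arrays, and 1 leaving out 1 array. The median (-0.25) was -0.089 with normexp, -0.028 with quantile normalization, -0.80 with array medians, where that of all genes was -0.57, -0.53 without both R1 arrays, -0.061 without both R2 arrays, and -0.37 to -0.087 leaving out 1 array.

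With the slide, which the replicate number marks, as a block, the counts higher and lower were 0 and 2, 2 and 3, and 1 and 8 in the 3 comparisons, so the block moved no count by more than 1.5 times. The medians did not move. Slide fits rest on 1 array a normal group, which is assumed to vary like the lame arrays. Except for lame against Tharparkar on slide 1, no gene with a difference as small as the largest of these genes was called in them. The same held for normal crossbred against Tharparkar with array medians. Counts of 0 in those fits therefore say little about these genes. Signal over background limits PFKM, PFKFB4, VEGFA and the genes not kept.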
